A study of Mus musculus with 8 samples.

Results

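The 3 genes of the NR4A family, Nr4a1, Nr4a2 and Nr4a3, are described here through the acetylated histone peaks called around them. A peak was taken when it overlapped the span of one of these genes, or the 100 kb to either side, in any of the 8 deposited peak lists. This gave 217 of the 378594 peaks on the assembled chromosomes, 121 around Nr4a1, 53 around Nr4a2 and 43 around Nr4a3, with 11 to 49 peaks from a single list. Merged across lists where they shared at least 1 base, the peaks formed 32, 12 and 10 regions, in the same order of genes. The protein-coding gene nearest to each peak was recorded, and 101 of the 217 peaks had the Nr4a gene itself as the nearest.

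The study measured acetylation of histone H3 at lysine 27 (H3K27ac), a mark of active promoters and enhancers, by chromatin immunoprecipitation and sequencing with the antibody ab4729. The cells were primary neurons from C57/BL6 mouse embryos, kept in culture until day 7 in vitro. All 4 groups, controls included, were silenced overnight from day 6 with 1 µM TTX, which blocks sodium channels, and 100 µM D-AP5, which blocks NMDA receptors. Depolarisation followed on day 7, by 2 h in 55 mM KCl, and cultures without KCl are here called unstimulated. Each treatment was given to cultures labelled CTX, from cortex, and to cultures labelled MGE, an abbreviation commonly used for the medial ganglionic eminence, with 2 libraries in each of the 4 groups. The labels differ on the embryonic day, since the titles of the CTX libraries give day 14 and the source field of every library gives day 16, and the cell type field names cortical neurons for the MGE libraries too. The libraries are called biological replicates in the labels, but nothing says that they came from separate litters or cultures, so the p-values below measure only the spread between these libraries.

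NR4A proteins are orphan nuclear receptors: they bind DNA as transcription factors, but no ligand is needed for them to be active. Their abundance is set largely by transcription, and all 3 genes are immediate early genes, which means that calcium entry and cyclic AMP signalling switch them on within minutes in neurons through factors already present, among them CREB. Nr4a1 (Nur77) is known for its roles in activity-regulated synapse number and in immune cells, Nr4a2 (Nurr1) for the development of midbrain dopamine neurons and for marking subplate and claustrum neurons in the cortex, and Nr4a3 (Nor1) for roles that overlap with those of Nr4a1.

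In the mm10 assembly Nr4a1 lies on the plus strand at chr15:101253902-101274795, and its annotated start in the RefSeq table is 12.9 kb inside that span. Nr4a2 lies on the minus strand at chr2:57106830-57124003, with its start at the higher end. Nr4a3 lies on the plus strand at chr4:48045078-48086447, with its start 0.227 kb inside the span. Exon and intron limits were not used here. Distances below are counted from the annotated start, and positive values run downstream on the strand of the gene.

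The promoters of the 3 genes are shown because peaks lay beside or over them and because CREB is a known regulator of the family. Each stretch runs from 250 bases before the annotated start to 50 bases after it (RefSeq, GRCm38.p6, the assembly of mm10), 5′ to 3′ on the strand of the gene, with the core of the cyclic AMP response element, TGACG or its complement CGTCA, in capitals. The positions are chr15:101266596-101266895 on the plus strand for Nr4a1, chr2:57123954-57124253 on the minus strand for Nr4a2 and chr4:48045055-48045354 on the plus strand for Nr4a3.
Nr4a1: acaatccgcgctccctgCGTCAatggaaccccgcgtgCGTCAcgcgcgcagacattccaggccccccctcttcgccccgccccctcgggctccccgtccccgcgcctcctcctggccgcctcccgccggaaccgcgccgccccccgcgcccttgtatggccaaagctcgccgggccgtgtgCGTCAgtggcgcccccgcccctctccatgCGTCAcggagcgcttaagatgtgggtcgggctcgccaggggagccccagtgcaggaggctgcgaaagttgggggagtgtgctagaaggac
Nr4a2: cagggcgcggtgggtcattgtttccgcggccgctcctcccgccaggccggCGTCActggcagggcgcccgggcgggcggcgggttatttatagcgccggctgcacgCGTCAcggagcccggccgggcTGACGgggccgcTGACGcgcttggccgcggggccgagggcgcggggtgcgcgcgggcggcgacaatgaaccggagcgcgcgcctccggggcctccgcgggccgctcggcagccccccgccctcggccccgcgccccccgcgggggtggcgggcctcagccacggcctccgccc
Nr4a3: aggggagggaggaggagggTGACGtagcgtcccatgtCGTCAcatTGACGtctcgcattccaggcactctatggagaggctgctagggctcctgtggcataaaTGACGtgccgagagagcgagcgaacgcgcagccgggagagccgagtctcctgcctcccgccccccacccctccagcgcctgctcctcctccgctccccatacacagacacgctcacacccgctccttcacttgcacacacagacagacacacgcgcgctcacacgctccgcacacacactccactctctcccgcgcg

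Each of the 3 promoters held 4 CRE cores, counted on both strands. Of 17274 promoters of the same length, 24.1% held at least 1 and 0.353% held 4 or more. The 3 promoters are rich in G and C (72.3%, 81.7% and 64.7%, against a median of 56.3%), and among the 4296 promoters with at least 64.7% the shares were 32.8% and 0.722%. In Nr4a3 all 4 CRE cores lay between 231 and 143 bases before the start. The other motifs searched on both strands were the full element TGACGTCA (in 2.37% of promoters), the AP-1 site TGANTCA (7.14%), the NBRE site of NR4A monomers AAAGGTCA (1.25%), the SRF CArG box (1.56%) and the TATA box TATAAA (13.4%). Of these, 1 TATA box in Nr4a2 was found, on the minus strand of the printed sequence, and the full element contains the CRE core, so a full element would have been counted as both. These are matches of letters in a 300-base window and say nothing about binding.

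Single lists ranged from 36035 to 66827 peaks, or 21.1 to 44.7 Mb of the genome. Replicate 2 of both CTX groups and of MGE KCl covered more than replicate 1 of the same group. Read depth is unknown, because the lists give no counts, and a stretch without a peak is one where no peak was called, not one without acetylation. Markers of neurons held 31.6 to 57.7 kb of peaks in every list. Markers of cortical projection neurons, such as Neurod6 and Tbr1, summed to 7.91 to 28.8 kb in the CTX lists and 0.240 to 3.80 kb in the MGE lists. Markers of MGE and GABAergic neurons summed to 17.7 to 30.5 kb and 21.8 to 37.7 kb, which overlap, but its single genes differed in both directions. Lhx6 and Nkx2-1 held no called base in CTX, against means of 1.84 and 3.06 kb in MGE KCl and 2.10 and 2.39 kb in MGE unstimulated. The means of Maf, Dlx5, Gad2 and Sst were also higher in MGE. Those of Dlx1, Dlx2, Dlx6 and Gad1 were higher in CTX, with Dlx2 at 7.93 kb in CTX KCl and 2.65 kb in MGE KCl. Glial markers also followed the culture: the 5 astrocyte genes held 12.5 to 26.8 kb in CTX and 1.93 to 12.3 kb in MGE, and the 5 oligodendrocyte lineage genes 14.5 to 34.0 kb and 1.89 to 5.36 kb. Microglial markers held at most 2.86 kb in any list, with Cx3cr1 at 0 in all 8, and endothelial and mural markers at most 8.17 kb, with Cldn5 and Tek at 0. The endothelial and mural sum was lower with KCl in CTX, at 3.34 and 5.33 kb against 5.67 and 8.17 kb, and overlapped in MGE, and its part in the results below was not tested. In a bulk culture, fewer cells of a type and less acetylation per cell cannot be told apart.

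All 3 Nr4a genes had more called peak length after KCl than without it, in both cultures. Called length is the summed length, in kb, of the peaks of a list that lie nearest to the gene, within 100 kb. Both KCl lists exceeded both unstimulated lists at all 3 genes in CTX and at all 3 in MGE. Over all protein-coding genes with a called base this held for 26.5% in CTX, 33.8% in MGE and 12.1% in both, and the reverse in both cultures for 1.24%.

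**Figure D1:**
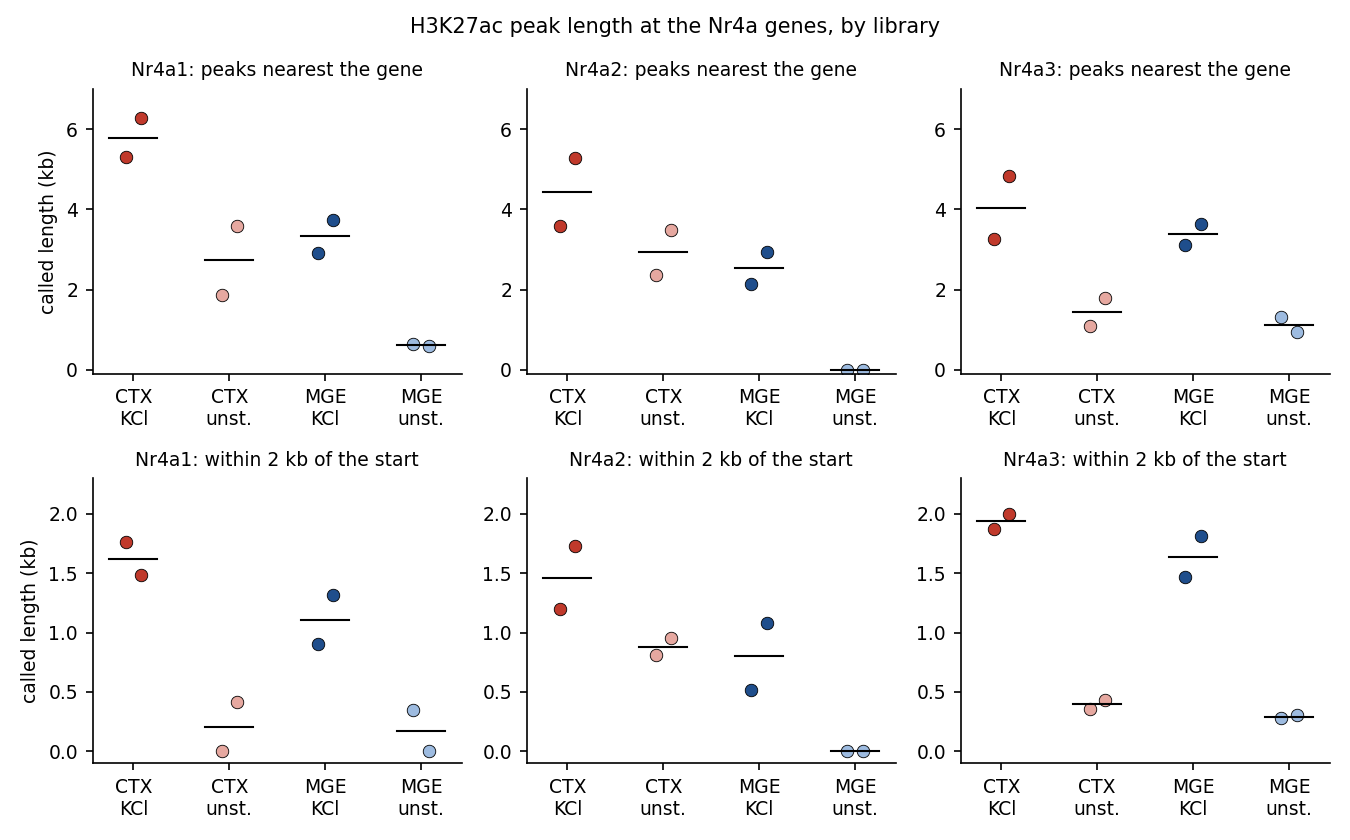
Called peak length in kb (vertical axes) in each of the 8 libraries at the 3 genes, with points for libraries and bars for the mean of each group of 2. The upper row counts all peaks nearest to the gene and the lower row counts bases within 2 kb of the annotated start, and in each panel both KCl points of a culture lie above both of its unstimulated points.

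At Nr4a1 the called length was 5.30 and 6.27 kb in replicates 1 and 2 of CTX KCl, 1.87 and 3.59 kb in CTX unstimulated, 2.92 and 3.75 kb in MGE KCl, and 0.646 and 0.593 kb in MGE unstimulated. The unstimulated CTX lists reached the range of the MGE lists with KCl, so the 4 KCl lists were not all above the 4 unstimulated ones. All means below are of 2 libraries, with the SD (n = 2). At Nr4a1 they were 5.78 ± 0.680 kb and 2.73 ± 1.22 kb for CTX, a ratio of 2.12, and 3.33 ± 0.586 kb and 0.620 ± 0.0375 kb in MGE, a ratio of 5.38. Averaged over the cultures the difference was 2.88 kb, and 183 of 15779 genes had a larger one.

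Nr4a2 held 3.59 and 5.29 kb in CTX KCl, 2.37 and 3.49 kb in CTX unstimulated, 2.14 and 2.94 kb in MGE KCl, and no called base in either MGE unstimulated list. In CTX the lower KCl list lay just above the higher unstimulated list. The CTX means were 4.44 ± 1.20 kb and 2.93 ± 0.789 kb, a ratio of 1.52, and their difference of 1.51 kb became 0.661 kb without CTX KCl replicate 2, 0.951 kb without CTX unstimulated replicate 1 and 2.36 kb without CTX KCl replicate 1. It was 2.92 kb with peaks of −log10 q of at least 5. In MGE the KCl mean was 2.54 ± 0.565 kb, and no ratio is given against 2 lists at 0. The difference over both cultures was 2.02 kb, with 390 genes above it.

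Nr4a3 held 3.25 and 4.84 kb in CTX KCl, 1.10 and 1.80 kb in CTX unstimulated, 3.12 and 3.63 kb in MGE KCl, and 1.32 and 0.933 kb in MGE unstimulated. All 4 KCl lists lay above all 4 unstimulated lists, which held for 5.58% of genes. Means were 4.04 ± 1.12 kb and 1.45 ± 0.489 kb in CTX, a ratio of 2.79, and 3.38 ± 0.361 kb and 1.13 ± 0.273 kb in MGE, a ratio of 3.00. The difference over both cultures was 2.42 kb, with 275 genes above it. It was 1.26 kb with peaks of −log10 q of at least 5 (0.896 kb in MGE) and 1.52 kb with peaks up to 50 kb from the gene.

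For each gene the exact two-sided permutation test of treatment within culture gave p = 0.0556, the smallest that its 36 relabellings allow, and the adjusted p over the 15779 genes was 0.416 (Benjamini-Hochberg). No difference between treatments therefore passed the test, and within 1 culture 2 libraries against 2 cannot go below an exact p of 0.333. Called length was also scaled per Mb of peaks in the list, which may not remove all effects of unequal list size. Both KCl lists were then again above both unstimulated lists at all 3 genes in both cultures, against 8.44% of genes. All 4 KCl lists were then above all 4 unstimulated lists at Nr4a1 as well as at Nr4a3, against 4.27% of genes.

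**Figure D2:**
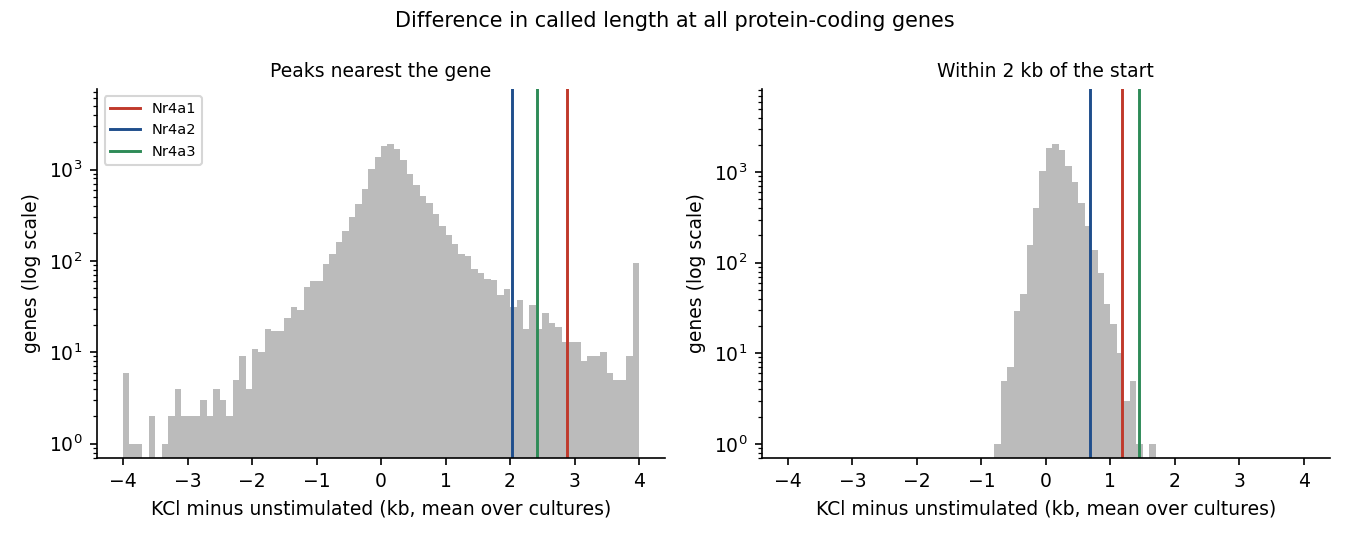
Histograms over all protein-coding genes with a called base of the KCl minus unstimulated difference in called length (horizontal axis, kb, mean over the cultures; vertical axis, number of genes on a log scale), for peaks nearest to the gene and for bases within 2 kb of the start; values beyond the axis are put in the outermost bins. The vertical lines mark Nr4a1, Nr4a2 and Nr4a3, at 2.88, 2.02 and 2.42 kb for the nearest peaks and at 1.18, 0.691 and 1.45 kb around the start, all in the upper tail.

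Part of the difference lay at the starts of the genes. Bases called within 2 kb of the annotated start were counted as a separate measure, which was chosen after the peaks had been seen, and differed by 1.45 kb at Nr4a3, 1.18 kb at Nr4a1 and 0.691 kb at Nr4a2. At Nr4a3 the bases called there came to 1.88 and 2.00 kb in CTX KCl against 0.355 and 0.435 kb, and 1.46 and 1.81 kb in MGE KCl against 0.277 and 0.302 kb. The difference was exceeded by that of 1 of 10313 genes, Fos, at 1.67 kb. Nr4a1 held 1.76 and 1.49 kb in CTX KCl against 0 and 0.415 kb, and 0.902 and 1.32 kb in MGE KCl against 0.348 and 0 kb, and its difference ranked 14. Nr4a2 held 1.20 and 1.73 kb against 0.809 and 0.953 kb in CTX, and 0.520 and 1.08 kb against 0 and 0 kb in MGE. Its difference was smaller than that of 314 genes.

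Both KCl lists exceeded both unstimulated lists around the start of all 3 genes in both cultures, as they did for 20.2% of genes. At Nr4a1 and Nr4a3 all 4 KCl lists exceeded all 4 unstimulated lists, as they did for 9.65%. The exact two-sided permutation p was again 0.0556 for each gene, with an adjusted p of 0.269 over the 10313 genes.

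**Figure D3:**
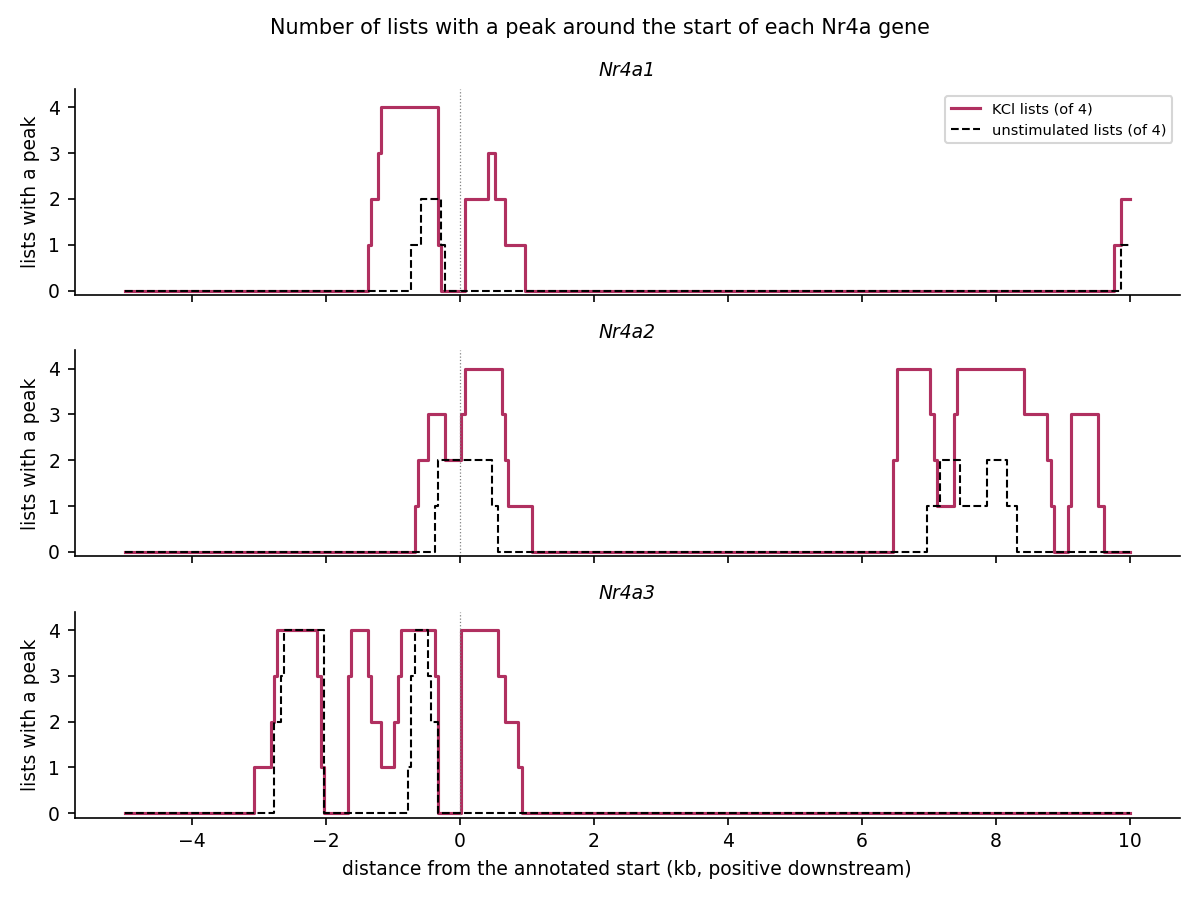
Number of KCl lists and of unstimulated lists (vertical axis, of 4 each, both cultures together) with a peak at each position around the annotated start of the 3 genes (horizontal axis, kb, positive downstream). At Nr4a3 the 2 lines reach 4 together between about 3 and 2 kb upstream, while just downstream of the start the KCl line alone is above 0.

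The start of Nr4a3 showed 3 neighbouring regions that behaved differently. The farthest upstream, chr4:48042213-48043293 (3.09 to 2.01 kb before the start), was in all 8 lists, with 724 and 1046 bp in CTX KCl, 749 and 739 bp in CTX unstimulated, 647 and 650 bp in MGE KCl and 623 and 631 bp in MGE unstimulated. Its lengths overlapped between the treatments in CTX and lay close together in MGE. The next, chr4:48043620-48044980 (1.69 to 0.325 kb before the start), was also in all 8 lists but held more called bases with KCl. These came to 1048 and 1346 bp against 355 and 435 bp in CTX, and 900 and 928 bp against 277 and 302 bp in MGE. In every KCl list except CTX KCl replicate 2 they formed 2 separate peaks. The stretch 1.64 to 1.35 kb before the start was called in all 4 KCl lists and in no unstimulated list. The third, chr4:48045325-48046207, began 0.020 kb after the start, inside the gene. It was called in the 4 KCl lists, with 828 and 654 bp in CTX and 564 and 883 bp in MGE, and in none of the unstimulated lists.

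A region was called gained in a culture when both KCl lists and neither unstimulated list held a peak in it. Of all regions of the genome with a CTX peak 6.08% were gained in CTX, of those with an MGE peak 8.02% were gained in MGE, and of those with peaks of both cultures 1.78% were gained in both. Lost regions, defined the other way round, made up 4.24% and 3.80%. Among regions nearest to Nr4a3, 2 of the 8 with a CTX peak were gained in CTX. Of the 5 with an MGE peak, 2 were gained in MGE, and the region just after the start was gained in both. The other gained regions lay 97.3 and 95.9 kb upstream, over the long non-coding RNA gene Gm46853. In CTX this was chr4:47947985-47948990, with 653 and 878 bp in CTX KCl, none in CTX unstimulated, 727 and 877 bp in MGE KCl, and 419 and 0 bp in MGE unstimulated. The MGE one, chr4:47949387-47949732, held 285 and 295 bp in MGE KCl and 0 and 329 bp in CTX KCl. Both lie near the 100 kb limit, and with a limit of 50 kb Nr4a3 had 1 gained region in each culture.

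The peaks just after the start of Nr4a3 had low fold enrichment within their own lists. The authors' fold enrichment was 1.93 to 2.03 in the 4 KCl lists, lower than in over 99% of the peaks of each list, while their −log10 q stood at percentile 36.3 to 74.0. For the peaks at 3.09 to 2.01 kb upstream, the percentile of fold enrichment within the list was 6.14, 3.71, 7.37 and 22.3 in the KCl lists and 22.2, 71.2, 84.4 and 96.1 in the unstimulated lists, and that of −log10 q was 78.8 to 99.5 over all 8. Some gained regions of Nr4a1 and Nr4a2, described below, ranked low in fold enrichment too. The percentiles were 0.856 to 9.07 for the Nr4a1 region gained in both cultures. They were 0.794 to 7.54 for the one just after the Nr4a1 start, and 2.93 to 9.95 for the Nr4a2 region gained in CTX. Higher ones in MGE KCl were 26.6 and 34.7 for the nearest Nr4a1 region gained in MGE alone, and 21.6 to 28.7 for the longest Nr4a2 region. These values belong to single peaks and were not compared between lists.

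**Figure D4:**
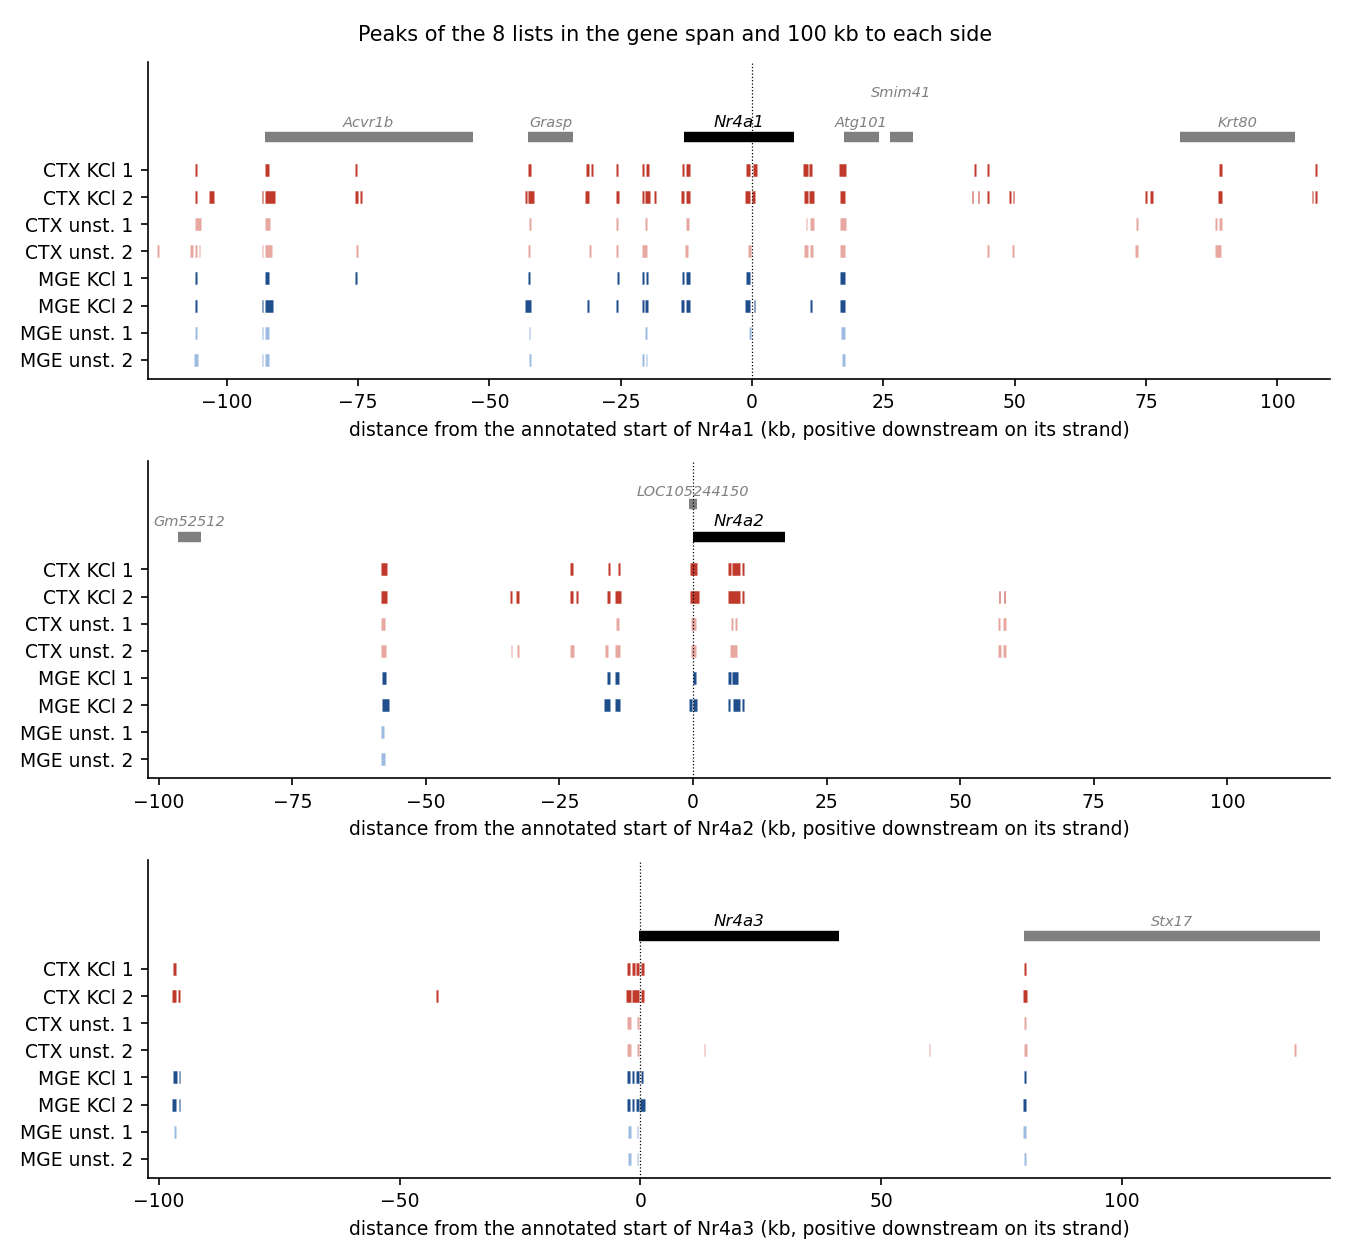
Peaks of the 8 lists (rows, coloured by group) in the windows of the 3 genes, against distance from the annotated start in kb (positive downstream), with gene spans drawn above. Peaks seen in the KCl rows and absent from the unstimulated rows lie at the start of Nr4a3, at the upstream edge and just after the start of Nr4a1, and inside Nr4a2, and the peaks at the starts of Atg101 and Stx17 run through all 8 rows.

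Of the 8 regions nearest to Nr4a1, all with a CTX peak, 2 were gained in CTX, and of the 6 with an MGE peak 2 were gained in MGE. The one gained in both, chr15:101253245-101253932, covered the upstream edge of the gene span, 13.6 to 12.9 kb before the annotated start. It held 493 and 516 bp in CTX KCl and 380 and 646 bp in MGE KCl, and was in no unstimulated list. Next to it, chr15:101254048-101255113 was gained in MGE, with 764 and 742 bp against none, and was present without KCl in CTX, with 517 and 681 bp there against 787 and 842 bp with KCl. Just before the annotated start, chr15:101265475-101266598 held 851 and 1022 bp in CTX KCl against 0 and 415 bp, and 902 and 1063 bp in MGE KCl against 348 and 0 bp. Just after the start, chr15:101266921-101267841 was gained in CTX, with 908 and 466 bp, and was in 1 MGE KCl list with 254 bp. A region 21.0 to 19.4 kb upstream was in all 8 lists but held more called bases with KCl. These came to 1013 and 1379 bp against 292 and 984 bp in CTX, and 870 and 722 bp against 298 and 593 bp in MGE.

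The promoter window of Nr4a1 printed above lay in the gap between the peaks on its 2 sides: its 300 bases were free of peaks in 7 lists and held 3 called bases in the eighth, MGE unstimulated replicate 1. That of Nr4a3 held 15 to 30 called bases in the 4 KCl lists and none without KCl. The window of Nr4a2 was different, since all 300 bases lay in a peak in the 4 CTX lists, treated or not, while the MGE lists held 0 and 47 called bases with KCl and none without.

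At Nr4a2, 1 of the 5 nearest regions, all with a CTX peak, was gained in CTX, and 2 of the 3 with an MGE peak were gained in MGE. The region at the start, chr2:57122918-57124669, was gained in MGE, with 520 and 1079 bp against none, and was present without KCl in CTX, with 809 and 953 bp there against 1197 and 1730 bp with KCl. The longest region nearest to the gene, chr2:57115133-57117545, lay inside it, 6.46 to 8.87 kb after the start. It held 1968 and 2389 bp in CTX KCl, 611 and 1303 bp in CTX unstimulated, 1619 and 1912 bp in MGE KCl and none in MGE unstimulated. In CTX the called length per list in this region was greater with KCl with no overlap, and the region was gained in MGE. A smaller one beside it, chr2:57114380-57114907, was gained in CTX, with 425 and 528 bp, and was in 1 MGE KCl list with 398 bp.

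Further peaks upstream of Nr4a2 lie inside the long non-coding RNA gene BB557941 and were not counted for Nr4a2, because a predicted gene model, LOC105244150, overlaps the start of Nr4a2 and is nearer to them. The region 14.7 to 13.6 kb before the start held 349 and 1031 bp in CTX KCl, 671 and 808 bp in CTX unstimulated, 886 and 950 bp in MGE KCl and none in MGE unstimulated. The one 16.6 to 15.5 kb before it held 457 and 570 bp, 0 and 647 bp, 468 and 1035 bp, and none, in the same order. Both were gained in MGE, and in CTX the treatments overlapped. With predicted models left out, an alternative chosen after the data were seen, Nr4a2 held 4.87 and 8.76 kb in CTX KCl against 3.04 and 6.50 kb, which overlap, and 3.49 and 5.37 kb in MGE KCl against none, with an exact permutation p of 0.111 and an adjusted p of 0.516. Under that rule 12.2% of genes had KCl lists above unstimulated lists in both cultures.

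Counted base by base, a measure also chosen after the data were seen, the share of called bases that were in both KCl lists and neither unstimulated list was above that of the whole genome in all 3 windows. The genome-wide shares were 6.38% in CTX, 8.25% in MGE and 1.85% in both cultures. Around Nr4a1 the shares were 14.2%, 25.6% and 12.2%, around Nr4a2 19.5%, 47.5% and 14.1%, and around Nr4a3 29.2%, 34.0% and 25.6%. In bases, the parts gained in both cultures came to 1132, 930 and 1116 bp. At Nr4a3, 560 of the 1116 bp lay 0.035 to 0.594 kb after the start and 294 bp lay 1.64 to 1.35 kb before it. At Nr4a1, 496 of the 1132 bp lay 1.20 to 0.704 kb before the start and 380 bp at the upstream edge of the span. At Nr4a2, 462 of the 930 bp lay inside the gene, 6.54 to 7.0 kb after the start, and 283 bp lay 15.9 to 15.6 kb before it. Bases lost with KCl came to 909, 323 and 0 bp in CTX and 5, 158 and 15 bp in MGE, and genome-wide 3.84% and 3.86% of bases were lost. At Nr4a1 the lost bases in CTX made up 3.87% of the called bases.

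**Figure D5:**
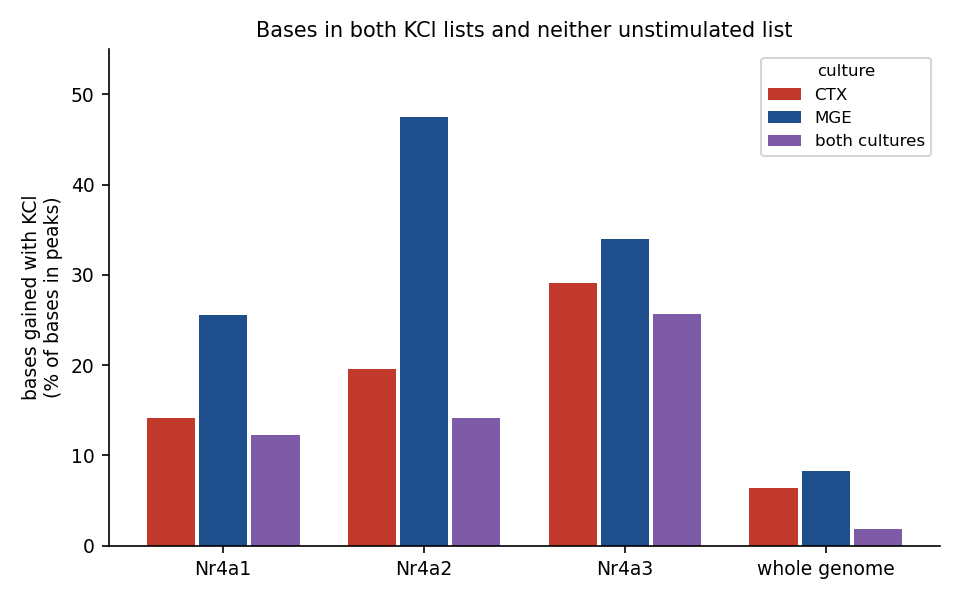
Share of called bases (vertical axis, percent) that lie in both KCl lists and in neither unstimulated list, for the windows of the 3 genes and the whole genome, by culture. In CTX the bars stand at 14.2, 19.5 and 29.2% for Nr4a1, Nr4a2 and Nr4a3 against 6.38% for the genome, and in MGE at 25.6, 47.5 and 34.0% against 8.25%; each bar is 1 value with no replicate.

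Of the 8 protein-coding genes beside the family members in the windows, 1 had both KCl lists above both unstimulated lists in both cultures, a share near the 12.1% over all genes. This was Grasp, a scaffold protein gene upstream of Nr4a1, with 1.92 and 2.52 kb against 0.740 and 1.22 kb in CTX, and 0.838 and 1.86 kb against 0.266 and 0.326 kb in MGE. The region at the start of Atg101, an autophagy gene 17 kb downstream of the start of Nr4a1, was in all 8 lists, with 1192 and 1051 bp in CTX KCl, 1093 and 998 bp in CTX unstimulated, 1020 and 1086 bp in MGE KCl and 756 and 527 bp in MGE unstimulated. These lengths overlapped between treatments in CTX and were longer with KCl in MGE. At the start of Stx17, a syntaxin gene 80 kb downstream of the start of Nr4a3, the peaks were 486 and 734 bp, 381 and 560 bp, 404 and 616 bp, and 570 and 362 bp, with overlap in both cultures. A region at the end of BB557941, 58.4 to 56.9 kb before the start of Nr4a2, was also in all 8 lists. It also overlaps the long non-coding RNA gene 4930555B11Rik and the tRNA genes n-TAcgc8 and n-TGgcc8. In CTX it was longer with KCl, at 1050 and 1066 bp against 711 and 883 bp. In MGE the treatments overlapped, at 784 and 1342 bp against 642 and 802 bp. In the Nr4a1 window 1 region was lost in CTX, 73 kb downstream near the keratin gene Krt80, with 245 and 523 bp without KCl. Of the genome's regions 11.4% were held by all 8 lists. Counted over the whole window rather than by nearest gene, the KCl and unstimulated lists of CTX overlapped at Nr4a1 and Nr4a2 (differences over both cultures of 5.16 and 3.54 kb, exact permutation p = 0.111 for both), and Nr4a3 stayed separate in both cultures (p = 0.0556), against 9.97% of genes.

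Between the cultures, Nr4a1 and Nr4a2 had less called length in MGE than in CTX, both with and without KCl. Each MGE list of a treatment lay below each CTX list of that treatment, as for 37.4% of genes without KCl and 39.3% with it. The difference averaged over treatments was -2.28 kb at Nr4a1 and -2.41 kb at Nr4a2 (exact two-sided permutation p = 0.0556 for both, the smallest possible, adjusted p = 0.216). At Nr4a3 the cultures overlapped, with a difference of -0.495 kb (exact permutation p = 0.333, adjusted p = 0.537), which ranged from -0.890 kb without CTX KCl replicate 1 to -0.0993 kb without CTX KCl replicate 2 and turned to 12.3 bp per Mb higher in MGE when called length was taken per Mb of peaks. Limited to peaks up to 50 kb away, the Nr4a3 difference was -0.681 kb (exact permutation p = 0.0556). Within 2 kb of the Nr4a3 start each MGE list lay below each CTX list of its treatment. The difference there was -0.203 kb (exact permutation p = 0.0556, adjusted p = 0.308), and per Mb it turned to 3.80 bp higher in MGE. With peaks of −log10 q of at least 5 the difference at Nr4a2 was -0.913 kb (exact permutation p = 0.333), and with equal called bases -1.34 kb. With predicted models left out, the KCl lists of the cultures overlapped at Nr4a2. They held 3.49 and 5.37 kb in MGE and 4.87 and 8.76 kb in CTX. Over the whole window they overlapped too, at 4.28 and 6.72 kb and 5.92 and 9.82 kb. The Nr4a2 differences were then -3.57 and -3.61 kb (exact permutation p = 0.111 for both). Per Mb the differences at Nr4a1 and Nr4a2 were -45.2 and -58.7 bp. The astrocyte, oligodendrocyte lineage and projection neuron markers given above were also higher in CTX, and their part in these differences was not tested. Regions called in CTX and in no MGE list made up 2 of 8 nearest regions at Nr4a1, 2 of 5 at Nr4a2 and 3 of 8 at Nr4a3, and no region of theirs was called in MGE alone. Over the genome 45.3% of regions had a CTX peak and no MGE peak, so these shares were not above the background, and 23.2% had an MGE peak and no CTX peak. At Nr4a1, 1 of these lay 9.79 to 10.7 kb after the start, in all 4 CTX lists, and the other was in 1 list. At Nr4a2 they lay 57 to 58.6 kb after the start, and both were in the 2 unstimulated CTX lists and 1 KCl list.

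In order of level, Nr4a1 was highest in CTX KCl and lowest in MGE unstimulated, with MGE KCl and CTX unstimulated overlapping between them. Nr4a2 had the same order of extremes, and again the middle pair overlapped. For Nr4a3 CTX KCl and MGE KCl overlapped at the top and CTX unstimulated and MGE unstimulated at the bottom. Whether the response to KCl differed between the cultures was not tested. The KCl minus unstimulated differences were 3.05 kb in CTX and 2.71 kb in MGE at Nr4a1, 1.51 and 2.54 kb at Nr4a2, and 2.59 and 2.25 kb at Nr4a3.

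Other immediate early genes were counted in the same way. Both KCl lists exceeded both unstimulated lists in both cultures at 11 of 16, against 12.1% of all genes, and the median difference of the list was 1.22 kb against 0.172 kb over all genes. The largest differences among the 11 were at Fos, 4.82 kb, and Fosb, 3.16 kb, both subunits of AP-1, then at the neuronal factor Npas4, 1.92 kb, the stress-response factor Atf3, 1.86 kb, and the antiproliferative gene Btg2, 1.52 kb. Nr4a1, Nr4a3 and Nr4a2, at 2.88, 2.42 and 2.02 kb, fall between Fosb and Npas4. The adjusted permutation p was 0.416 for each of these genes too.

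Regulators and partners of NR4A proteins met the same condition at 4 of 18 genes with called bases. Over all genes the share was 12.1%, and the lists are small. These were Crebbp, which encodes the CREB-binding acetyltransferase, with a difference of 1.93 kb, the CREB family members Crem, 1.03 kb, and Atf1, 0.783 kb, and Srf, 0.584 kb, the serum response factor. The median of this list was 0.365 kb, against 0.172 kb over all genes. Among other nuclear receptor genes 1 of 28 met it, the testicular receptor gene Nr2c1, with 0.538 kb, and the list median was 0.411 kb. Of 7 dopaminergic genes that Nr4a2 is known to act on, none met it, and their median difference was -0.196 kb. No gene of these 4 lists had both KCl lists below both unstimulated lists in both cultures. Nr0b2 and Slc6a3 held no called base in any list and are left out of the counts. Markers of subplate and claustrum neurons, among which Nr4a2 is itself a known marker, held 9.45 to 20.1 kb in CTX and 10.6 to 16 kb in MGE, and none met the condition. Most of this was Gng2, with group means of 7.54 to 8.97 kb, and Lmo3, with 3.07 to 4.68 kb. Cplx3 had means of 0.471 kb (KCl) and 0.194 kb (unstimulated) in CTX and no called base in MGE. Ccn2 had means of 1.23 and 1.68 kb in CTX, with wide spread, and 0.645 and 0.225 kb in MGE. Nxph4 held no called base in any list.

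The genes whose called length was spread over the 8 libraries most like that of each member were found by the summed difference in percent shares, per Mb of peaks, halved to run from 0 for the same spread. For Nr4a1 they were Mif, a cytokine gene, at 6.0 percentage points, Jcad, a junctional protein gene, at 6.36, and Gpsm2, a spindle orientation gene, at 7.46, against a median of 25.6 over 8565 genes. For Nr4a2 they were Wif1, which encodes a secreted Wnt inhibitor, at 5.00, Depdc1b at 6.94 and Rgs21 at 8.58, with a median of 28.4 over 8218 genes. For Nr4a3 they were the amino acid transporter gene Slc7a1 at 3.79, the circadian gene Noct at 4.34 and Nsmce2, a SUMO ligase gene, at 4.86, with a median of 23.4 over 8406 genes. Within the family, Nr4a1 was 10.8 points from Nr4a2 and 15.0 from Nr4a3, and Nr4a2 and Nr4a3 were 22.7 apart. No family member was thus among the 3 nearest genes of another.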

How the data were processed

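H3K27ac was measured in 8 libraries, and the authors deposited 1 list of broad peaks for each; no list pools libraries. The submitters' processing notes name cutadapt 1.18, Bowtie2 2.3.3, MACS3 3.0.0a7, deepTools 3.4.3 and mm10. For settings, input libraries and the role of each tool, nothing is given in the sources used here. Each deposited peak has a score, a fold enrichment (a ratio), a −log10 p and a −log10 q, all the authors' values. The lowest −log10 q per list was 1.30 to 1.35. Lists without counts leave depth unknown, and list size limits what can be seen.

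The members and the gene lists were chosen with earlier results of these data known. With Python 3.11.15, pandas 2.3.3 and NumPy 2.4.6, each peak was given to the nearest of 21631 protein-coding gene spans (RefSeq table, GRCm38.p6) within 100 kb, and peaks that overlapped several genes counted for each. The 29 peaks outside the assembled chromosomes were left out. The same exact permutation tests ran on every gene with a called base, with Benjamini-Hochberg adjustment over all of them, and were checked on simulated data. Genes named are the members, their neighbours, for each member the 3 genes most alike on other chromosomes (called bases in at least 4 lists, mean of at least 1 kb), and from each list up to 5 genes separated by treatment in both cultures. Fos was also named for its difference around the start. Alternatives covered −log10 q of at least 5, equal numbers of peaks or called bases, 50 kb, whole windows, 500 bp bins or minima, scaling per Mb, a replicate block and leaving out each library. Motif shares are over 1 promoter per gene.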

Additional observations from a re-analysis of the deposited data

How the results depend on the processing

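The KCl minus unstimulated difference in called length kept its direction at all 3 genes under all 120 alternatives run over 9 results. Some of the 120 left the main value unchanged. These were the replicate block at all 3 genes, where this is so by construction, 50 kb at Nr4a1 and Nr4a2, and predicted models left out at Nr4a1 and Nr4a3. No p fell below 0.05, but none could, since the exact tests allow no p below 0.0556. Leaving out 1 library gave 2.45 to 3.31 kb at Nr4a1, 1.60 to 2.45 kb at Nr4a2 and 2.03 to 2.82 kb at Nr4a3 over both cultures. Sizes moved by over 1.5 times in some. With −log10 q of at least 5 the difference was 1.26 kb at Nr4a3 (1.63 kb in CTX, 0.896 kb in MGE) and 2.92 kb at Nr4a2 in CTX. With equal called bases it was 2.50 kb at Nr4a2 and 1.68 kb at Nr4a3 in CTX. With 50 kb it was 1.52 kb at Nr4a3 (1.66 and 1.37 kb), with whole windows 5.16 kb at Nr4a1 (5.83 and 4.48 kb) and 3.54 kb at Nr4a2 (2.3 and 4.77 kb), and with predicted models left out 3.24 kb at Nr4a2 (4.43 kb in MGE). Of the 48 alternatives for MGE against CTX, 46 kept the direction. The exceptions were at Nr4a3, where the difference was 0.198 kb with equal called bases and 12.3 bp per Mb of peaks, both higher in MGE, and the cause was not tested. The Nr4a3 difference was -0.112 kb with equal numbers of peaks and -0.322 kb without CTX unstimulated replicate 2, and leaving out 1 library gave -0.890 to -0.0993 kb. At Nr4a2 it was -0.913 kb with −log10 q of at least 5 and -1.34 kb with equal called bases, and at Nr4a1 -6.87 kb in whole windows.

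Numbers of gained regions moved in 21 of 72 alternatives. With −log10 q of at least 5, CTX counts were 4 at Nr4a1, 2 at Nr4a2 and 1 at Nr4a3, and Nr4a3 had 0 in MGE. With equal called bases Nr4a1 had 1 in MGE and Nr4a3 had 1 in CTX, and with 50 kb Nr4a3 had 1 in CTX and 1 in MGE. Whole windows, and predicted models left out, gave Nr4a2 4 in MGE. With at least 500 bp called, the counts were 0 for Nr4a1 and 0 for Nr4a2 in CTX, and 1 for Nr4a1 and 1 for Nr4a3 in MGE. For bins of 500 bp, only runs of at least 2 adjacent gained bins were counted. By that rule Nr4a1 had 0 in CTX and 0 in MGE, Nr4a2 had 1 in MGE, and Nr4a3 had 1 in CTX and 0 in MGE. Single gained bins were left out, and they lay nearest to all 3 genes in both cultures. Among them, chr15:101253501-101254000 and chr15:101265501-101266000 at Nr4a1 were gained in both cultures. So were chr4:48043501-48044000 and chr4:48045501-48046000 at Nr4a3. Leaving out 1 library gave 2 to 3 in CTX and 2 to 4 in MGE for Nr4a1, 1 in CTX and 2 to 3 in MGE for Nr4a2, and 2 to 4 in CTX and 2 to 3 in MGE for Nr4a3. The 4 at Nr4a1 came without MGE KCl replicate 1 and the 4 at Nr4a3 without CTX KCl replicate 1. Equal numbers of peaks moved no count by over 1.5 times.

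The correlation of same-numbered libraries' deviations from their group means, over 15779 genes, was 0.427 between CTX KCl and CTX unstimulated, 0.122 between MGE KCl and MGE unstimulated, 0.220 between CTX KCl and MGE KCl, 0.225 between CTX unstimulated and MGE KCl, -0.0472 between CTX KCl and MGE unstimulated and -0.0805 between CTX unstimulated and MGE unstimulated. It was above 0.1 in both pairs within a culture but not in every pair of groups. The labels state no pairing, and the numbers were not read as pairs in the main test. The part of the larger replicate 2 lists in these correlations was not tested. With the replicate block the exact sign-flip p was 0.125, the smallest possible, for KCl at all 3 genes, and 0.125, 0.125 and 0.375 for MGE against CTX at Nr4a1, Nr4a2 and Nr4a3, with the differences themselves as without the block.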
